A study of Aedes aegypti with 12 samples.

Results

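Brain transcripts of AaegGr34 mutant mosquitoes were compared with those of wild-type mosquitoes in 6 of the 12 RNA-seq libraries of a study of *Aedes aegypti*, the yellow fever mosquito. There were 3 mutant and 3 wild-type brain libraries, taken by the tissue and genotype in their labels, and the other 6 libraries came from the fat body of the same genotypes. Wild type was the Liverpool strain, and both genotypes had constant access to sucrose solution. The study calls the libraries of a group biological replicates but does not say how many animals each held, so p-values measure only the spread between these libraries. The sources used here do not give the lesion in the mutant, nor the animals' age, sex or meals before dissection.

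Gustatory receptors are ion channels that insect neurons use to sense chemicals, mostly tastants, and some are also expressed in the brain. In *Drosophila* the related receptor Gr43a senses fructose, both in taste cells and in a few brain neurons. The insect brain joins the optic lobes, which process signals from the photoreceptors of the eye, to central centres whose neurons signal with acetylcholine, GABA, glutamate, amines and peptides. Photoreceptor cells carry opsins, and dissected brains can hold retinal tissue.

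The 3 mutant libraries held 20028290, 21044436 and 20976004 counts, and the 3 wild-type libraries held 31314215, 22558993 and 20740390. Levels are in CPM, a gene's count over the TMM-scaled library size in M counts, given as mean ± SD over 3 libraries or as each library's value. Gr34 (LOC5570009) itself had 0.292, 0.514 and 1.35 CPM in mutant brains, against 0.776, 0.937 and 0.360 CPM in wild-type brains. The groups overlapped (log2 fold change 0.04, SE 0.60, adjusted p 0.985, two-sided quasi-likelihood test of edgeR with Benjamini-Hochberg adjustment). At this depth no difference in its level was detectable, and the level does not check the genotype labels. Of 11848 genes tested, 1050 (8.86%) passed an adjusted p of 0.05 and are described as called, 545 higher in the mutant (4.6%) and 505 lower (4.26%). Mutant over wild type, all genes tested had a median log2 fold change of 0.01. The values of the genotypes did not overlap in 28.6% of the genes tested. Leaving out mutant replicate 1, mutant replicate 2, wild-type replicate 1 or wild-type replicate 2 brought the number of called genes to 405, 686, 463 or 407.

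Of the 1050 called genes, 641 carried a descriptive annotation, 362 of them higher and 279 lower in the mutant. Changes under 2-fold made up 425 of the 1050. Among 1714 genes that averaged 100 CPM or more in either genotype, 101 were called (5.89%), 61 higher and 40 lower, and 86 of these 101 changed by less than 2-fold. The median size of the log2 change of these 101 genes was 0.62. Genes are described below by function, in groups defined by words in their annotation, with the called members and the median log2 fold change of each group. These are to be read against all tested genes, with 4.6% called higher, 4.26% called lower and a median of 0.01. A word in an annotation can bring in genes of another role. Behind a group's median, a range gives the fewest and the most called members over the 6 fits that each left out 1 library, where that moved a count by over 1.5 times. Of the groups, 14 smaller ones were drawn up after values were seen, so their called shares are no test of the group. These cover cytosolic and mitochondrial tRNA ligases, initiation factors, elongation factors, nucleolus, lipid droplets, lysosome, protease inhibitors and glutathione. They also cover purine and thymidylate synthesis, urate, heme and iron, glycosaminoglycans, and other eye and sevenless genes. Genes marked † were picked once values were known. Genes marked ‡ overlap another annotated gene or have a near-equal copy, so their reads are uncertain. Overlaps were not searched for genes without a place on a chromosome, so these can lack the mark and be uncertain too. Among them are 40S ribosomal protein S17, V-type ATPase subunit d 1 LOC5574244, cytochrome P450 28a5 and ZXDC-like. EFR3 homolog LOC5569747 and S-adenosylmethionine decarboxylase are others, and all of these had counts that were not whole. Where a call did not hold with 1 library left out, the libraries are named at the end of the paragraph with the adjusted p without each of them.

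**Figure D1:**
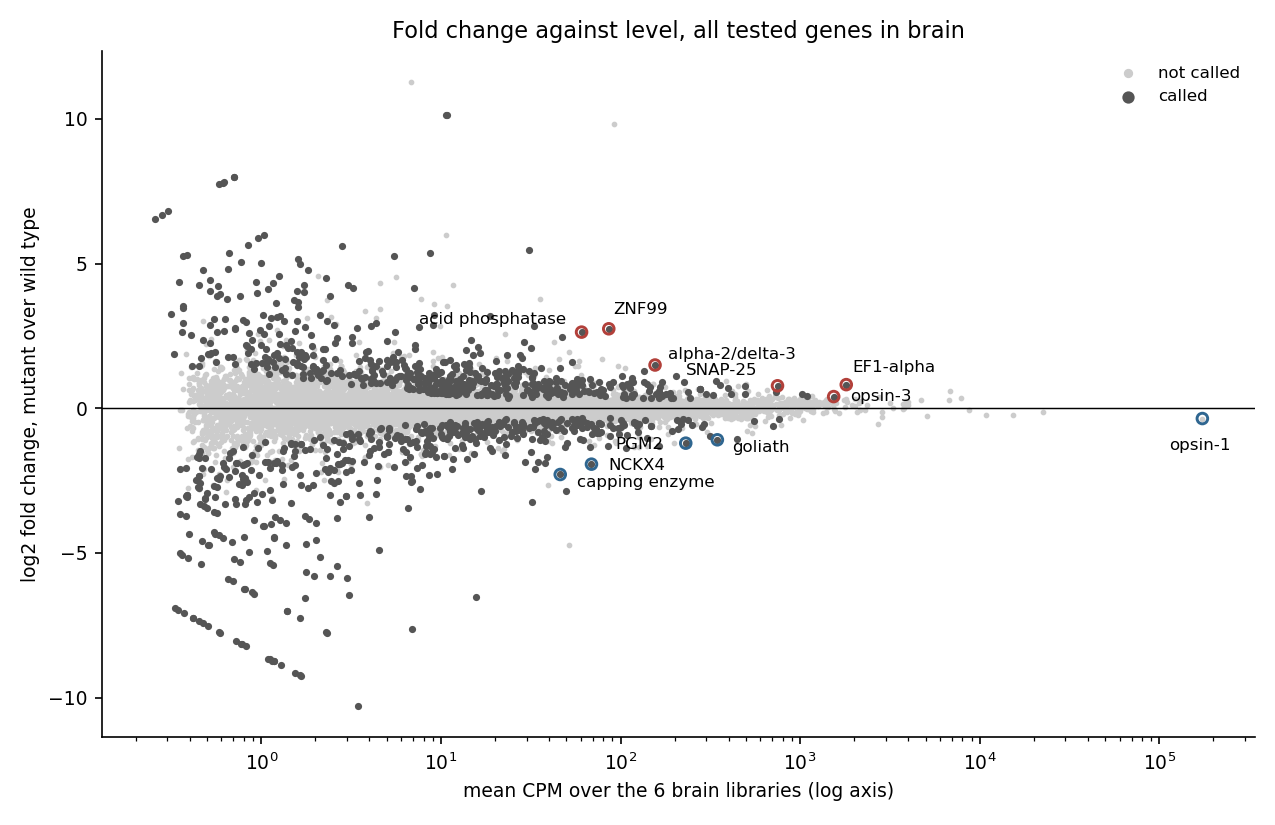
Log2 fold change of mutant over wild-type brain against the mean level over the 6 brain libraries (CPM, log axis) for the 11848 genes tested. Dark points are the 1050 called genes, light points the others, and the labelled genes are ringed, red if higher and blue if lower in the mutant. Most called genes above 100 CPM lie within a 2-fold change, and opsin-1 stands far to the right of all other genes.

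The brain libraries held transcripts of neurons, glia and photoreceptors. A list of 35 photoreceptor genes took 21.1, 22.9 and 21.8% of counts in mutant brains, against 26.8, 23.1 and 27.9% in wild-type brains. All 3 mutant shares lay below the wild-type shares, by 4.06 percentage points on average, and the exact two-sided permutation test gave p = 0.1, the smallest that 3 against 3 libraries allow. Of 31 tested photoreceptor markers 1 was called, and their median log2 fold change was -0.22. Opsin-1 (LOC5567680‡) held most of this share, with means of 152300 CPM in mutant and 194900 CPM in wild-type brains. The next marker in level had 21670 and 23600 CPM. The lower share was therefore largely that of opsin-1, which was not called. Neuron and glia markers took 0.706, 0.64 and 0.665% in mutant brains, against 0.713, 0.779 and 0.692% in wild-type brains, which overlapped. Mitochondrial 16S ribosomal RNA took 0.696, 0.792 and 1.02% in mutant brains, against 0.533, 0.489 and 0.579% in wild-type brains. Fat body markers took 0.144, 0.141 and 0.152% in mutant brains, against 0.0889, 0.118 and 0.126% in wild-type brains, with 3 of 24 tested markers called higher and 1 lower. Gut markers overlapped, at 0.249, 0.32 and 0.148% in mutant brains, against 0.173, 0.201 and 0.216% in wild-type brains, with 6 of 39 called higher and 1 lower (median 0.37). Malpighian tubule markers overlapped too, at 0.527, 0.492 and 0.493% in mutant brains, against 0.501, 0.511 and 0.492% in wild-type brains, with 7 of 51 called higher and 1 lower (median -0.02). In bulk tissue, fewer cells of a type and less RNA per cell cannot be told apart, and the part of these shares in the changes of single genes was not tested.

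**Figure D2:**
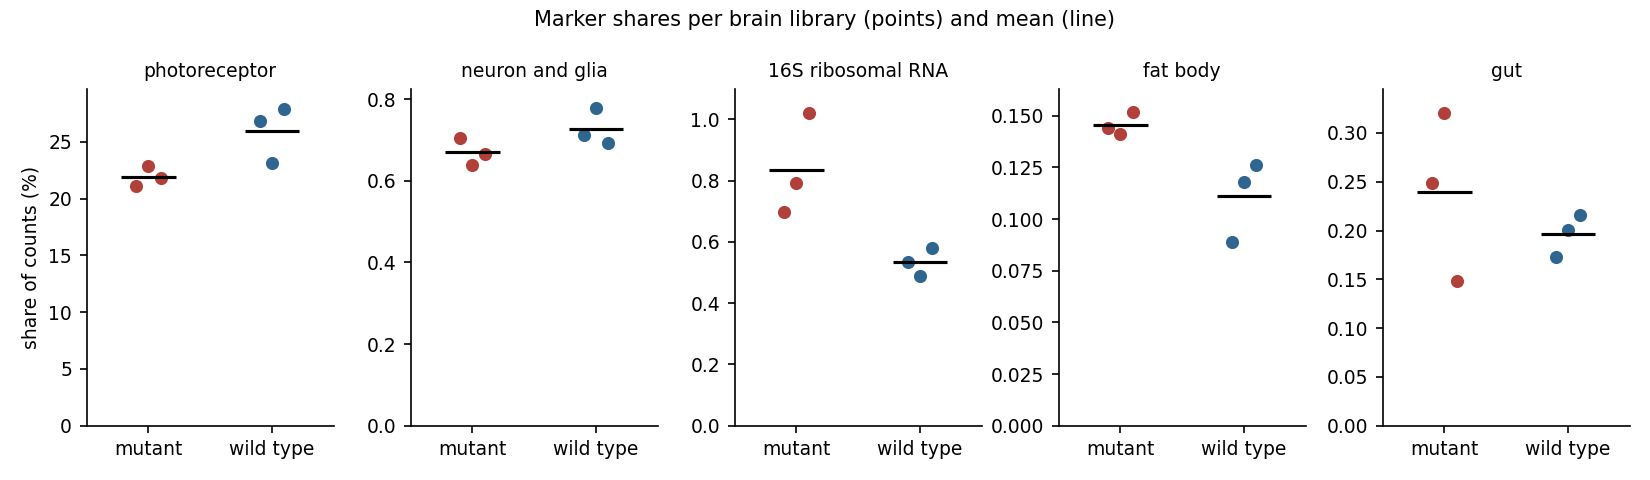
Share of all counts (%, linear axes from 0) taken by 4 marker lists and by mitochondrial 16S ribosomal RNA in each brain library, with mutant points on the left, wild-type points on the right and lines at the means of 3 libraries. The photoreceptor share was lower and the 16S and fat body shares were higher in all 3 mutant libraries, while the neuron and glia share and the gut share overlapped.

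Genes of vision were called in both directions. Of 34 phototransduction genes 1 was called higher and 0 lower (median -0.23, range 0 to 1 higher and 0 to 1 lower), against a median of 0.01 for all genes. Retinoid and eye pigment genes had 4 of 36 called higher and 1 lower (median 0.12), and the 4 higher ones are all annotated as xanthine dehydrogenase, described with urate below. Opsin-1 (LOC5567680‡), the most abundant gene of the list, had 140600, 167900 and 148400 CPM in mutant brains, against 203900, 167500 and 213500 CPM in wild-type brains. The groups overlapped, mutant replicate 2 lying just above wild-type replicate 2, and the gene was not called (log2 fold change -0.36, SE 0.16, adjusted p 0.229). Opsin-3 (LOC5576882), another visual pigment, was the called gene, at 1692, 1861 and 1700 CPM in mutant brains, against 1311, 1304 and 1358 CPM in wild-type brains. All 3 mutant libraries were above all 3 wild-type libraries (log2 fold change 0.40, SE 0.09, adjusted p 0.0351). The called opsin rose while the summed photoreceptor transcripts, mostly opsin-1, took a smaller share in the mutant. Opsin-3 (0.0516 to 0.157) lost its call without any one of the 6 libraries.

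A further 21 tested genes carry words of the eye, of the sevenless pathway or of receptor kinases in their annotation, in a list drawn up after values were seen. Of these 1 was called higher and 6 lower (median -0.23, range 0 to 1 higher and 1 to 5 lower). Some act in phototransduction, 3 of them also being in that list, and others act in receptor tyrosine kinase signalling in many tissues. RdgC (LOC5577768†‡), the phosphatase that removes phosphate from rhodopsin in *Drosophila*, had 31.3, 32.2 and 34.2 CPM in mutant brains, against 52.9, 62.8 and 49.99 CPM in wild-type brains, without overlap (log2 fold change -0.76, SE 0.11, adjusted p 0.00827). G protein-coupled receptor kinase 2 (LOC5567507†), a kinase of activated receptors, fell as well, to 46.5 ± 5.96 CPM in mutant brains, against 65.3 ± 0.940 CPM in wild-type brains (adjusted p 0.0375). Bride of sevenless (LOC5568657†) encodes the membrane protein that in *Drosophila* instructs the R7 photoreceptor and also responds to glucose. It had 67.5, 93.8 and 63.9 CPM in mutant brains, against 141, 136 and 151 CPM in wild-type brains. Every mutant library lay below every wild-type library (log2 fold change -0.93, SE 0.15, adjusted p 0.0123). Son of sevenless (LOC5568816†), the Ras exchange factor downstream of receptor tyrosine kinases, fell to 20.8 ± 4.09 CPM in mutant brains, against 43.5 ± 4.22 CPM in wild-type brains (log2 fold change -1.07, SE 0.16, adjusted p 0.00865). Daughter of sevenless (LOC5570945†), an adaptor of the same receptors, was the gene that rose, at 57.1 ± 4.34 CPM in mutant brains, against 39.4 ± 4.71 CPM in wild-type brains (adjusted p 0.0331). The call of G protein-coupled receptor kinase 2 (0.051 to 0.12) was lost without any one of the 6 libraries. The call of daughter of sevenless (0.0655 to 0.14) was lost without any one library other than wild-type replicate 1. Bride of sevenless (0.0666) and son of sevenless (0.052) lost their calls without mutant replicate 1.

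Pikachurin (LOC5578284†‡), a matrix protein of photoreceptor synapses in vertebrates, fell to 35.6 ± 8.80 CPM in mutant brains, against 61.0 ± 4.22 CPM in wild-type brains (adjusted p 0.045). Optomotor-blind (LOC5570026†), a T-box factor needed for the optic lobe in *Drosophila*, fell to 13.5 ± 3.57 CPM in mutant brains, against 25.3 ± 2.82 CPM in wild-type brains (adjusted p 0.038). In retinoid metabolism, retinol dehydrogenase 12 (LOC5565044), a reductase of retinaldehyde, had 14.8, 16.3 and 14.4 CPM in mutant brains, against 29.7, 29.99 and 30.3 CPM in wild-type brains. The groups did not overlap (log2 fold change -0.99, SE 0.09, adjusted p 0.00171). Carotenoid isomerooxygenase (LOC5577639), which cleaves carotenoids to retinal, was the most abundant gene of its list and was not called, at 641 ± 307 CPM in mutant brains, against 358 ± 55.6 CPM in wild-type brains (adjusted p 0.189). The photoreceptor share of counts, most of it opsin-1, was lower in all mutant libraries, and its part in the lower visual genes was not tested. The calls of pikachurin (0.0953 to 0.142) and optomotor-blind (0.0746 to 0.125) were lost without any one library other than mutant replicates 2 and 3.

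Few genes of the synapse were called. Synaptic release machinery had 1 of 60 tested genes called higher and 1 lower (median -0.08, range 1 to 2 higher and 0 to 1 lower). SNAP-25 (LOC5565055) codes for a SNARE protein of the plasma membrane that drives fusion of synaptic vesicles. It had 1033, 878 and 924 CPM in mutant brains, against 564, 550.3 and 541 CPM in wild-type brains. All mutant libraries were well above all wild-type libraries (log2 fold change 0.78, SE 0.09, adjusted p 0.004), and the gene lies on chromosome 1 at 145207801 to 145276812 on AaegL5.0. Syntaxin-7 (LOC5579978‡), an endosomal SNARE, fell to 142 ± 26.3 CPM in mutant brains, against 245 ± 35.7 CPM in wild-type brains (adjusted p 0.0272). Complexin (LOC5569269‡), a clamp on vesicle fusion, was the most abundant gene of the list and was not called, at 1566 ± 85.7 CPM in mutant brains, against 1745 ± 112 CPM in wild-type brains (adjusted p 0.401). Transmitter synthesis and vesicle loading had 0 of 26 genes called higher and 1 lower (median -0.17), the called gene being choline O-acetyltransferase (LOC5573378‡), the enzyme of acetylcholine synthesis, at 12.7 ± 2.57 CPM in mutant brains, against 45.8 ± 5.57 CPM in wild-type brains (adjusted p 0.00157). Glutamate decarboxylase (LOC5575655), the enzyme of GABA synthesis, was not called, at 815 ± 49.99 CPM in mutant brains, against 857 ± 31.2 CPM in wild-type brains (adjusted p 0.702). Syntaxin-7 (0.057 to 0.103) lost its call without any one library other than mutant replicate 2.

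A pair of genes of calcium handling moved far in opposite directions. Calcium channel subunit alpha-2/delta-3 (LOC5574272‡) encodes an auxiliary subunit that brings voltage-gated calcium channels to the membrane. It had 212, 229.9 and 248 CPM in mutant brains, against 83.3, 87.8 and 73.6 CPM in wild-type brains. The groups were far apart, with every mutant library above every wild-type library (log2 fold change 1.49, SE 0.10, adjusted p 0.000571). Sodium/potassium/calcium exchanger 4 (LOC5565499) encodes a carrier that extrudes calcium against sodium and potassium, in neurons and photoreceptors among other cells. It had 28.6, 30.6 and 26.5 CPM in mutant brains, against 115, 97.7 and 115 CPM in wild-type brains. Every mutant library lay far below every wild-type library (log2 fold change -1.93, SE 0.11, adjusted p 0.000285). The first lies on chromosome 2 at 258506218 to 258588314 and the second on chromosome 3 at 274601915 to 274615141.

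Among 60 voltage-gated and leak channels the alpha-2/delta subunit was the called gene and rose (median -0.06, range 1 higher and 0 to 1 lower). Sodium leak channel NALCN (LOC5579947‡), the channel that sets resting excitability, was the most abundant of them and was not called, at 267 ± 37.5 CPM in mutant brains, against 327 ± 26.9 CPM in wild-type brains (adjusted p 0.218). Unc-80 (LOC5580226†), a protein that anchors that channel in the membrane, fell to 49.1 ± 13.5 CPM in mutant brains, against 90.1 ± 9.86 CPM in wild-type brains (adjusted p 0.0465). Tweety (LOC5580108†‡), a chloride channel of the tweety family, had 54.6, 40.4 and 52.0 CPM in mutant brains, against 127, 127 and 113 CPM in wild-type brains. The groups were far apart (log2 fold change -1.32, SE 0.13, adjusted p 0.00183). The call of unc-80 (0.0615 to 0.134) was lost without any one library other than mutant replicate 2.

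**Figure D3:**
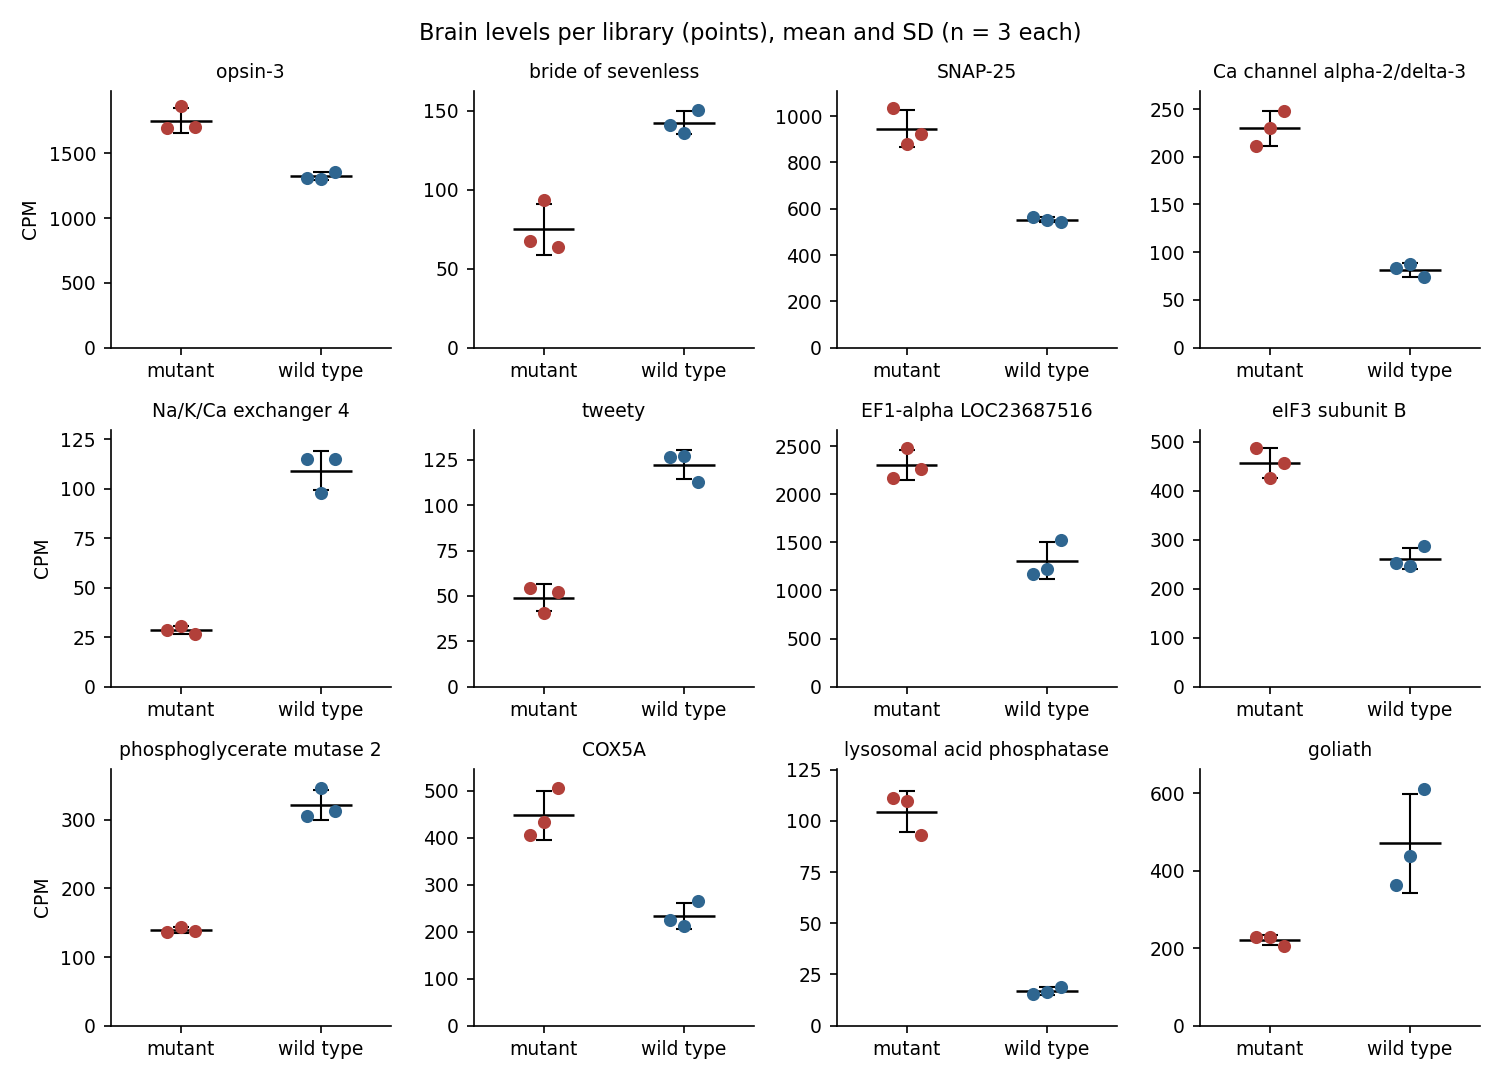
Level (CPM, linear axes from 0) of 12 genes in each brain library, mutant on the left and wild type on the right, with bars at the mean and the SD of 3 libraries. The groups do not overlap in any of the 12 panels, and the mutant is higher in 7 and lower in 5.

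The called genes of peptides and of their receptors were all lower in the mutant. Of 39 neuropeptide and peptide receptor genes 0 were called higher and 5 lower, against 4.6% and 4.26% of all tested genes (median -0.19, range 0 higher and 1 to 4 lower). Allatotropin (LOC5572123), which acts on juvenile hormone glands, gut and heart, had 189, 165 and 179 CPM in mutant brains, against 236, 236 and 231 CPM in wild-type brains. The groups did not overlap (log2 fold change -0.40, SE 0.08, adjusted p 0.0286). Ion transport peptide-like (LOC5567317‡), of the family of antidiuretic peptides, fell to 99.96 ± 1.98 CPM in mutant brains, against 142 ± 20.4 CPM in wild-type brains (adjusted p 0.0336). The pyrokinin-1 receptor (LOC5578924†), which responds to peptides that act on muscle and glands, fell to 9.58 ± 0.569 CPM in mutant brains, against 14.4 ± 1.13 CPM in wild-type brains (adjusted p 0.0235). Of 55 receptors for transmitters and amines 0 were called higher and 2 lower (median -0.13, range 0 to 1 higher and 0 to 3 lower), among them the 5-hydroxytryptamine receptor (LOC23687692†‡), at a low level of 1.74 ± 0.378 CPM in mutant brains, against 3.99 ± 0.602 CPM in wild-type brains (adjusted p 0.0286). The other called receptor, a glutamate receptor of the kainate type, was more abundant, at 29.3 CPM in mutant and 40.2 CPM in wild-type brains. Its log2 fold change was -0.455 (adjusted p 0.0204), and its call with a library left out is not given. Allatotropin (0.0624 to 0.108) lost its call without any one library other than wild-type replicate 3. The calls of the pyrokinin-1 receptor (0.0536 to 0.0964) and the 5-hydroxytryptamine receptor (0.0614 to 0.101) were lost without any one library other than mutant replicate 3. Ion transport peptide-like (0.0648 to 0.108) lost its call without any one library other than wild-type replicates 1 and 3.

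Over all 417 kinases, phosphatases and G protein genes, 9 were called higher and 16 lower (median -0.06, range 4 to 9 higher and 3 to 9 lower). The type I regulatory subunit of protein kinase A (LOC5574099), which holds the kinase inactive until cAMP binds, had 109.6, 86.1 and 97.9 CPM in mutant brains, against 134, 158 and 158 CPM in wild-type brains, without overlap (log2 fold change -0.62, SE 0.12, adjusted p 0.0219). The cGMP-dependent phosphodiesterase (LOC5570905†), which degrades cyclic nucleotides, fell to 25.4 ± 3.55 CPM in mutant brains, against 39.5 ± 1.68 CPM in wild-type brains (adjusted p 0.0229). OCRL-1 (LOC5577228), a phosphatase of phosphoinositides on endosomes, fell to 83.6 ± 1.14 CPM in mutant brains, against 125 ± 10.1 CPM in wild-type brains (log2 fold change -0.58, SE 0.09, adjusted p 0.0086). In the other direction, hemipterous (LOC5578019), the kinase above JNK in stress signalling, rose to 206 ± 13.5 CPM in mutant brains, against 125 ± 11.4 CPM in wild-type brains (log2 fold change 0.72, SE 0.10, adjusted p 0.0066). The call of the cGMP-dependent phosphodiesterase (0.0518 to 0.0915) was lost without any one library other than mutant replicates 2 and 3. The type I regulatory subunit of protein kinase A (0.0833 and 0.0549) lost its call without wild-type replicate 2 or 3.

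Glial and adhesion genes included members of 1 name that changed in opposite ways. Lachesin (LOC5564155), an immunoglobulin protein of neurons and barrier glia, had 27.8, 17.9 and 18.9 CPM in mutant brains, against 6.24, 7.67 and 7.86 CPM in wild-type brains, while lachesin (LOC5577497), annotated with the same name, had 28.0, 28.3 and 26.1 CPM in mutant brains, against 39.8, 40.7 and 37.8 CPM in wild-type brains. Neither gene's groups overlapped (log2 fold changes 1.57, SE 0.20, and -0.52, SE 0.09; adjusted p 0.00485 and 0.0138). Neural cell adhesion molecule 2-like (LOC110677245), another immunoglobulin adhesion protein, fell to 9.46 ± 0.370 CPM in mutant brains, against 21.9 ± 0.800 CPM in wild-type brains (log2 fold change -1.21, SE 0.10, adjusted p 0.00088). Apolipoprotein D (LOC5578236‡), a lipid carrier that glia secrete, had 183, 236 and 225 CPM in mutant brains, against 392, 372 and 484 CPM in wild-type brains. Each mutant library was below each wild-type library (log2 fold change -0.95, SE 0.14, adjusted p 0.00869). A second gene of this name, LOC5572154, fell as well, at 21.1 ± 1.43 CPM in mutant brains, against 29.8 ± 2.84 CPM in wild-type brains (adjusted p 0.0354). Glutamine synthetase 2 (LOC5577984), which glia use to clear glutamate, was not called, at 892 ± 89.2 CPM in mutant brains, against 1047 ± 230.2 CPM in wild-type brains (adjusted p 0.488). The 13 genes listed as glial or of the blood-brain barrier had 0 called higher and 2 lower (median -0.14, range 0 to 1 higher and 1 lower), and the 104 genes of axon guidance and adhesion had 1 and 2 (median -0.13, range 1 to 2 higher and 1 to 2 lower). Apolipoprotein D LOC5572154 (0.0604 to 0.127) lost its call without any one of the 6 libraries. Without mutant replicate 1 or wild-type replicate 1 or 2, lachesin LOC5577497 (0.0582 to 0.0735) was not called.

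**Figure D4:**
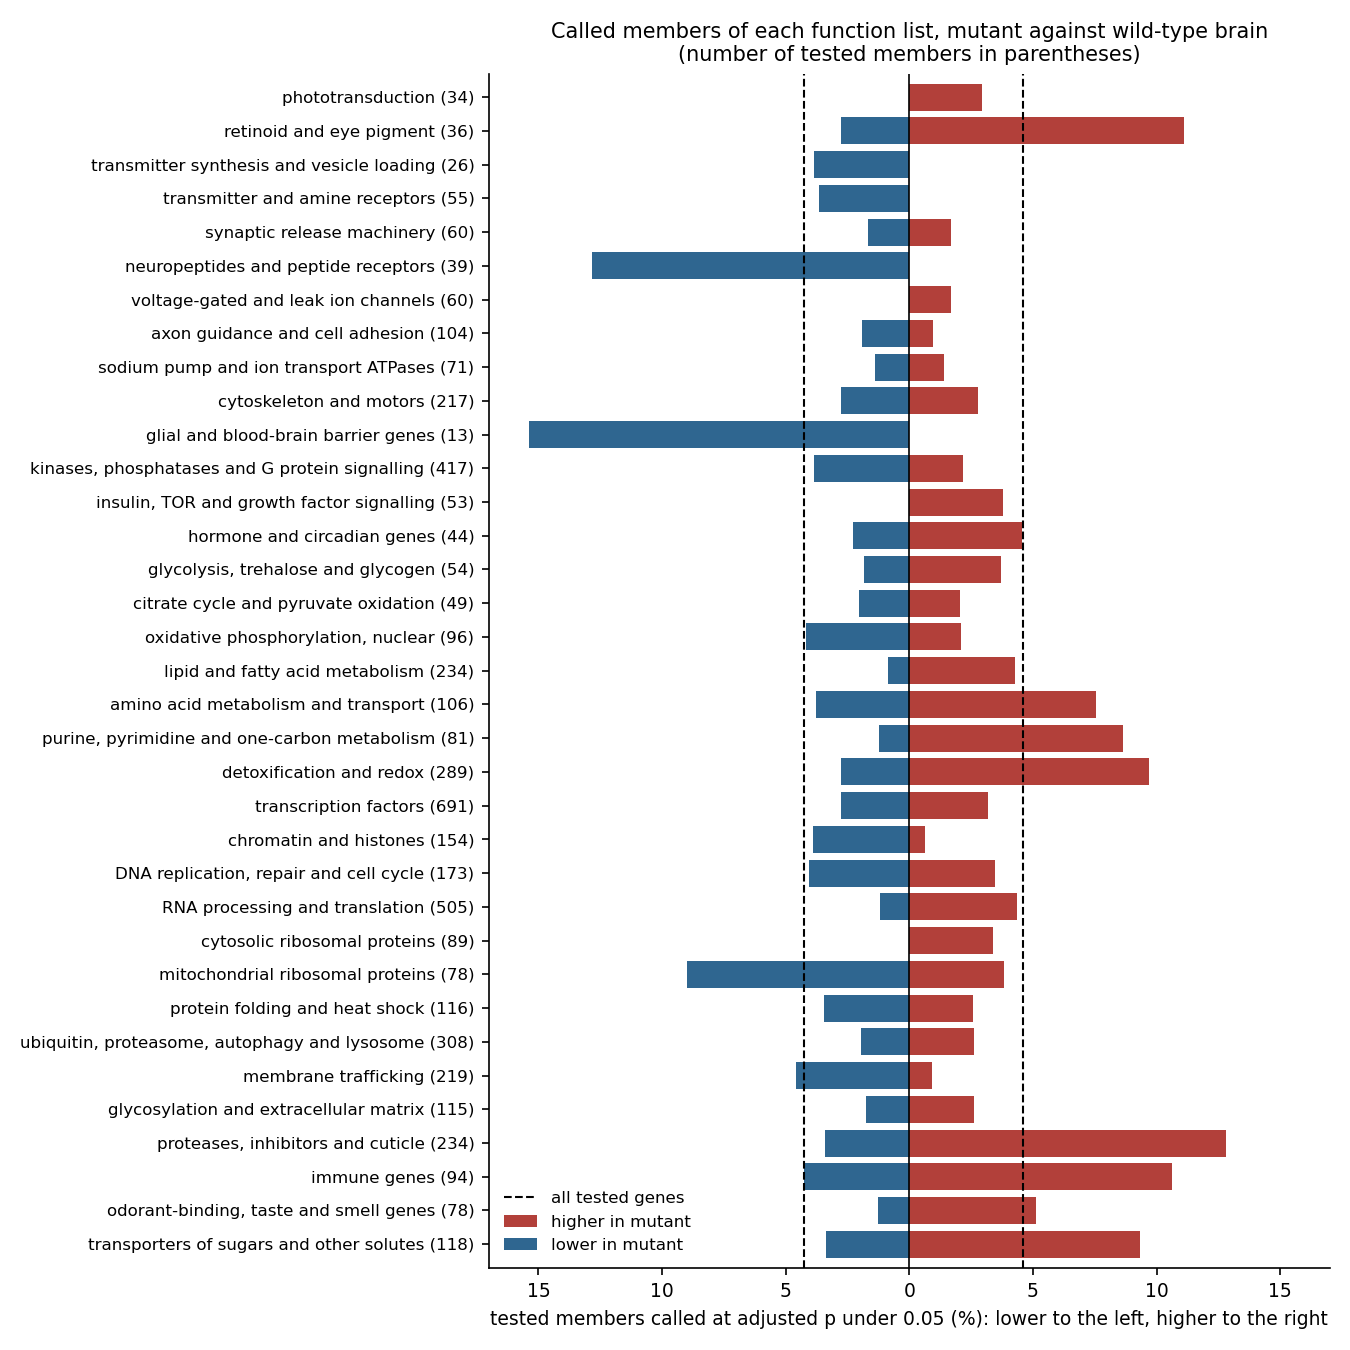
Called members of each of 35 function lists as a share of its tested members (%, 0 in the middle), lower in the mutant to the left in blue and higher to the right in red, with dashed lines at the shares over all tested genes (4.26% lower, 4.6% higher). The lists of transmitters, receptors, release machinery, channels and adhesion stay inside the dashed lines, the neuropeptide, glial, mitochondrial ribosomal and membrane traffic lists reach past the left one, and the lists of retinoids, amino acids, purines, detoxification, proteases and cuticle, immune genes, smell genes and solute transporters reach past the right one.

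Of 505 genes of RNA processing and translation, 22 were called higher (4.36%, against 4.6% of all tested genes) and 6 lower (median 0.02, range 5 to 18 higher and 0 to 4 lower). Smaller lists within translation, drawn up after values were seen, are given next. Of 5 cytosolic elongation factors 2 were called higher and 0 lower (median 0.29, range 0 to 2 higher and 0 lower). Elongation factor 1-alpha (LOC23687516), which delivers aminoacyl-tRNA to the ribosome, had 2173, 2478 and 2262 CPM in mutant brains, against 1172, 1227 and 1529 CPM in wild-type brains. All mutant libraries lay above all wild-type libraries (log2 fold change 0.82, SE 0.13, adjusted p 0.0107). A second gene of the same name, LOC23687721†‡, was not called, at 1818 ± 84.8 CPM in mutant brains, against 1749 ± 76.3 CPM in wild-type brains (log2 fold change 0.06, adjusted p 0.778). Elongation factor 1-gamma (LOC5574648), a subunit of the exchange factor, rose to 378 ± 34.0 CPM in mutant brains, against 277 ± 10.2 CPM in wild-type brains (adjusted p 0.031), and elongation factor 2 (LOC5564921†), which moves the ribosome along, was not called, at 5203 ± 79.1 CPM in mutant brains, against 4245 ± 67.0 CPM in wild-type brains (adjusted p 0.0987). The cytosolic aminoacyl-tRNA ligases, which load amino acids onto tRNA, had 4 of 22 called higher and 0 lower (median 0.23, range 1 to 5 higher and 0 lower). The mitochondrial ligases gave 0 of 13 in either direction (median 0.02), with 3 at an unadjusted p under 0.05. Alanine-tRNA ligase (LOC5569067†) had 99.1, 105 and 88.9 CPM in mutant brains, against 60.9, 67.0 and 60.4 CPM in wild-type brains, without overlap (log2 fold change 0.64, SE 0.10, adjusted p 0.0088). The ligases for leucine (LOC5567972†), isoleucine (LOC5576333†) and phenylalanine (LOC5565159†, beta subunit) had log2 fold changes of 0.65, 0.83 and 0.55 (adjusted p 0.019, 0.0196 and 0.0218). The call of elongation factor 1-gamma (0.0688 to 0.142) was lost without any one library other than mutant replicate 1 and wild-type replicate 3. The phenylalanine-tRNA ligase beta subunit (0.0544 to 0.0868) lost its call without any one library other than mutant replicate 3 and wild-type replicate 3. Without mutant replicate 1 or wild-type replicate 1 or 2, leucine-tRNA ligase (0.0686 to 0.083) and isoleucine-tRNA ligase (0.0769 to 0.0783) were not called. The call of elongation factor 1-alpha LOC23687516 (0.053 and 0.062) was lost without wild-type replicate 1 or 2.

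Initiation factors had 4 of 40 tested genes called higher and 1 lower (median 0.17, range 1 to 3 higher and 0 to 2 lower). Initiation factor 3 subunit B (LOC5569547‡), a core subunit of the complex that recruits the small ribosomal subunit, had 487, 425 and 456 CPM in mutant brains, against 252, 246 and 286 CPM in wild-type brains. The groups were well apart (log2 fold change 0.80, SE 0.10, adjusted p 0.00441). Subunits K (LOC5567501†) and E (LOC5574338†) of the same complex rose by less, with log2 fold changes of 0.50 and 0.37 (adjusted p 0.0318 and 0.0491). Initiation factor 2 subunit 1 (LOC5578388†), part of the factor that brings the initiator tRNA, rose to 88.3 ± 11.8 CPM in mutant brains, against 60.4 ± 1.91 CPM in wild-type brains (adjusted p 0.0262). Initiation factor 3 subunit E (0.056 to 0.194) lost its call without any one of the 6 libraries. Initiation factor 3 subunit K (0.0643 to 0.133) lost its call without any one library other than wild-type replicate 3. The call of initiation factor 2 subunit 1 (0.063 to 0.097) was lost without any one library other than mutant replicates 2 and 3.

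Genes of the nucleolus and of ribosome assembly had 5 of 60 called higher and 0 lower (median 0.08, range 2 to 4 higher and 0 lower). Nucleolar GTP-binding protein 1 (LOC5572534), which matures the large subunit, had 465, 513 and 492 CPM in mutant brains, against 287, 297 and 321 CPM in wild-type brains, without overlap (log2 fold change 0.70, SE 0.09, adjusted p 0.00457). Nucleolar and coiled-body phosphoprotein 1 (LOC23687495), a chaperone of nucleolar particles, rose to 486 ± 30.04 CPM in mutant brains, against 342 ± 19.0 CPM in wild-type brains (adjusted p 0.0167), and nucleolar protein 58 (LOC5568612†‡), of the particles that methylate ribosomal RNA, rose to 17.01 ± 1.36 CPM in mutant brains, against 5.37 ± 0.605 CPM in wild-type brains (log2 fold change 1.67, SE 0.13, adjusted p 0.00088). A second gene of this name, LOC23687857†, was not called, at 39.4 ± 3.56 CPM in mutant brains, against 49.2 ± 3.41 CPM in wild-type brains (log2 fold change -0.32, adjusted p 0.112). Of 89 cytosolic ribosomal protein genes 3 were called, all higher (median 0.22, range 1 to 3 higher and 0 lower). 40S ribosomal protein S17 (LOC110680939) had 586, 639 and 644 CPM in mutant brains, against 357, 352 and 376 CPM in wild-type brains, and its groups did not overlap (log2 fold change 0.79, SE 0.08, adjusted p 0.0027). The other called genes are a pair both annotated as S20 (LOC5572088‡ and LOC110680475†‡) with nearly equal counts in every library, so they are uncertain and may stand for 1 measurement (log2 fold change 0.67, adjusted p 0.0269). Without mutant replicate 1 or wild-type replicate 1 or 2, nucleolar and coiled-body phosphoprotein 1 (0.0598 to 0.082) was not called. The calls of 40S ribosomal protein S20 LOC5572088 (0.0593 to 0.119) and 40S ribosomal protein S20 LOC110680475 (0.0593 to 0.119) were lost without mutant replicate 2 or wild-type replicate 1 or 2.

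The 116 genes of protein folding and heat shock had 3 called higher and 4 lower (median 0.02, range 0 to 4 higher and 1 to 3 lower). Activating transcription factor of chaperone (LOC5576642), the mosquito gene of the ATF4 family that acts in amino acid and endoplasmic reticulum stress, had 1246, 1237 and 1296 CPM in mutant brains, against 887, 967 and 954 CPM in wild-type brains, without overlap (log2 fold change 0.43, SE 0.09, adjusted p 0.0259). 4E-binding protein (LOC5572651), which blocks cap-dependent translation and is a known target of that factor in *Drosophila*, rose to 197 ± 22.9 CPM in mutant brains, against 145 ± 10.7 CPM in wild-type brains (adjusted p 0.0495). Heat shock cognate 5 (LOC110679353), the chaperone of the mitochondrial matrix, rose to 875 ± 31.7 CPM in mutant brains, against 595 ± 29.7 CPM in wild-type brains (log2 fold change 0.56, SE 0.09, adjusted p 0.00984). CHIP (LOC5580255), a ubiquitin ligase that works with heat shock chaperones, fell to 158 ± 27.3 CPM in mutant brains, against 261 ± 15.3 CPM in wild-type brains (adjusted p 0.0201). The call of activating transcription factor of chaperone (0.0536 to 0.119) was lost without any one library other than wild-type replicate 3. 4E-binding protein (0.0689 to 0.188) lost its call without any one library other than mutant replicate 3. Without mutant replicate 1 or wild-type replicate 1 or 2, CHIP (0.0523 to 0.0868) was not called. The call of heat shock cognate 5 (0.0593) was lost without wild-type replicate 1.

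**Figure D5:**
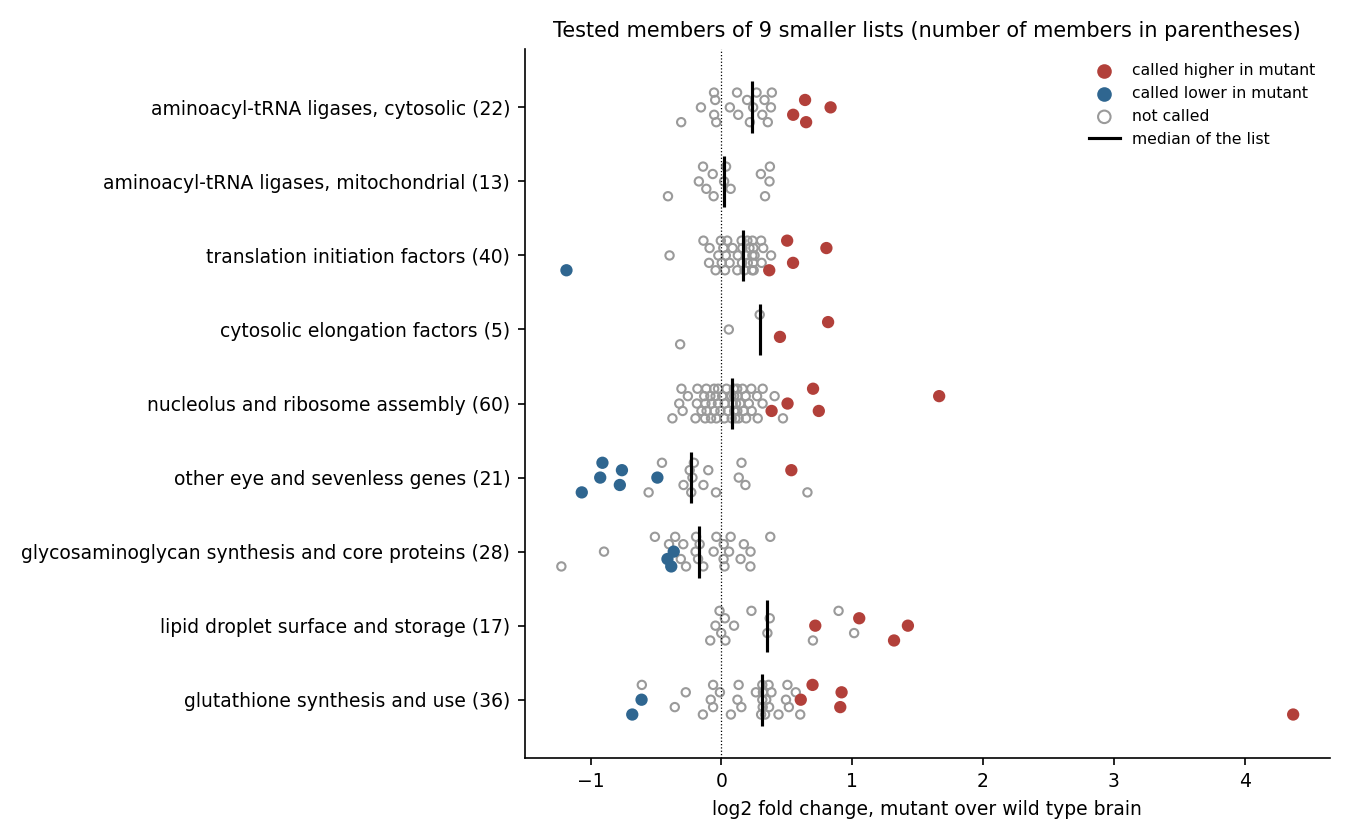
Log2 fold change, mutant over wild-type brain, of every tested member of 9 smaller lists (points, with called genes filled in red or blue) and the median of each list (black line). Cytosolic tRNA ligases lie mostly to the right of 0 and mitochondrial ones around it, the other eye and sevenless genes lie mostly to the left, and the lipid droplet and glutathione lists hold most of their called genes on the right.

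Genes of sugar use changed in a few steps. Phosphoglycerate mutase 2 (LOC5567423), a glycolytic enzyme that moves the phosphate of phosphoglycerate, had 136, 144 and 138 CPM in mutant brains, against 306, 346 and 313 CPM in wild-type brains. All mutant values lay far below all wild-type values (log2 fold change -1.21, SE 0.09, adjusted p 0.000571), and the gene lies on chromosome 1 at 184012010 to 184013213. Aldose 1-epimerase (LOC5573533) and galactokinase (LOC5576099), which bring galactose into metabolism, both rose, the first to 17.3 ± 3.35 CPM in mutant brains, against 6.78 ± 0.560 CPM in wild-type brains (adjusted p 0.00457). The second rose to 13.8 ± 2.04 CPM in mutant brains, against 7.77 ± 1.76 CPM in wild-type brains (adjusted p 0.043). UTP-glucose-1-phosphate uridylyltransferase (LOC5566725†‡), which makes UDP-glucose for glycogen and glycoproteins, had 86.0, 80.3 and 76.7 CPM in mutant brains, against 42.2, 41.0 and 40.1 CPM in wild-type brains, without overlap (log2 fold change 0.98, SE 0.08, adjusted p 0.00108). NADP-dependent malic enzyme (LOC5567037), a source of NADPH, rose to 293 ± 80.4 CPM in mutant brains, against 158 ± 25.2 CPM in wild-type brains (adjusted p 0.044), and the pyruvate dehydrogenase E1 alpha subunit (LOC5566309‡), at the entry to the citrate cycle, fell to 49.97 ± 4.05 CPM in mutant brains, against 64.9 ± 2.32 CPM in wild-type brains (adjusted p 0.0477). Glycolysis, trehalose and glycogen genes had 2 of 54 called higher and 1 lower (median 0.09, range 1 to 5 higher and 1 lower). Galactokinase (0.0818 to 0.15) lost its call without any one library other than wild-type replicate 3. The calls of NADP-dependent malic enzyme (0.0527 to 0.162) and the pyruvate dehydrogenase E1 alpha subunit (0.0936 to 0.175) were lost without any one library other than mutant replicate 3.

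Nuclear genes of the respiratory chain had 2 of 96 called higher and 4 lower (median 0.04, range 2 higher and 1 to 4 lower). Cytochrome c oxidase subunit 5A (LOC5565701), a subunit of the oxygen-reducing complex, had 405, 433 and 506 CPM in mutant brains, against 225, 212 and 266 CPM in wild-type brains, and the groups were apart (log2 fold change 0.94, SE 0.13, adjusted p 0.00616). ADP,ATP carrier protein 1 (LOC5565544), which exchanges ADP and ATP across the inner membrane, was not called, at 7465 ± 1199 CPM in mutant brains, against 6074 ± 220.1 CPM in wild-type brains (adjusted p 0.247). The ATP synthase lipid-binding protein (LOC5567660), of the proton channel of that enzyme, was not called either, at 3391 ± 247 CPM in mutant brains, against 2959 ± 324 CPM in wild-type brains (adjusted p 0.388). Dynamin-like 120 kDa protein (LOC5579109†‡), which fuses inner membranes, rose to 221 ± 2.79 CPM in mutant brains, against 171 ± 3.81 CPM in wild-type brains (adjusted p 0.0239). Mitochondrial ribosomal proteins had 3 of 78 called higher and 7 lower (median -0.02, range 1 to 2 higher and 2 to 5 lower), and ribosomal protein L37 (LOC5576132) was among the higher, at 53.0 ± 9.68 CPM in mutant brains, against 28.3 ± 4.59 CPM in wild-type brains (adjusted p 0.0199). In both lists more members were called lower than higher, but the called members described here, cytochrome c oxidase subunit 5A and L37, are higher ones. All mutant libraries also had more mitochondrial 16S ribosomal RNA, and its part in these changes was not tested. The call of dynamin-like 120 kDa protein (0.0529 to 0.105) was lost without any one library other than wild-type replicate 3. Ribosomal protein L37 (0.0775 and 0.0574) lost its call without wild-type replicate 1 or 3.

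Of 17 genes of lipid droplets, the stores of neutral fat, 4 were called higher and 0 lower (median 0.35, range 1 to 3 higher and 0 lower). That is 23.5% called, against 8.86% of all tested genes, but the list was drawn up after values were seen, so the share is no test. Lipid storage droplets surface-binding protein 2 (LOC5568403), a perilipin that coats the droplet, had 127, 118 and 142 CPM in mutant brains, against 70.1, 72.2 and 92.7 CPM in wild-type brains, without overlap (log2 fold change 0.72, SE 0.13, adjusted p 0.0195). Lipid storage droplets surface-binding protein 1 (LOC5567287†), the other perilipin, rose to 43.3 ± 14.1 CPM in mutant brains, against 20.8 ± 0.466 CPM in wild-type brains (adjusted p 0.0299). A putative phosphatidate phosphatase (LOC5568635†), named for the step from phosphatidate to diacylglycerol, rose to 20.9 ± 5.76 CPM in mutant brains, against 7.76 ± 0.903 CPM in wild-type brains (log2 fold change 1.43, SE 0.21, adjusted p 0.00823). The other phosphatidate phosphatases of the list were not called (log2 fold changes -0.085 and 0.027). Acyl-CoA-binding protein homolog (LOC5571685†), a carrier of activated fatty acids, rose to 19.7 ± 4.38 CPM in mutant brains, against 7.94 ± 2.77 CPM in wild-type brains (adjusted p 0.0287). Fat body cells are rich in these transcripts, and fat body markers took a larger share in all 3 mutant libraries. Surface-binding protein 2 is itself one of these markers, so the share is not separate from it. The part of fat body tissue here was not tested. Acyl-CoA-binding protein homolog (0.0541 to 0.12) lost its call without any one library other than wild-type replicate 3. The call of lipid storage droplets surface-binding protein 1 (0.0734 to 0.117) was lost without any one library other than mutant replicates 2 and 3. The call of lipid storage droplets surface-binding protein 2 (0.0686 to 0.087) was lost without mutant replicate 1 or wild-type replicate 1 or 2.

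Enzymes of other lipids moved in both directions. Enoyl-CoA hydratase (LOC5563904), of fatty acid oxidation, rose to 67.9 ± 9.24 CPM in mutant brains, against 38.7 ± 3.30 CPM in wild-type brains (log2 fold change 0.81, SE 0.13, adjusted p 0.0103). Neutral ceramidase (LOC5568678†), which splits ceramide to sphingosine, had 59.0, 59.4 and 51.8 CPM in mutant brains, against 92.4, 96.7 and 110.0 CPM in wild-type brains, and the groups did not overlap (log2 fold change -0.81, SE 0.10, adjusted p 0.00471). Sphingomyelin synthase-related 1 (LOC5570327‡), of sphingomyelin-like lipid synthesis, also fell, to 62.8 ± 7.97 CPM in mutant brains, against 89.0 ± 6.72 CPM in wild-type brains (adjusted p 0.0396). ORM1-like protein (LOC5575858†‡), a brake on the first step of sphingolipid synthesis, had 47.9, 55.5 and 53.6 CPM in mutant brains, against 27.4, 27.3 and 27.4 CPM in wild-type brains, all mutant values being higher (log2 fold change 0.94, SE 0.09, adjusted p 0.00183). Over all 234 lipid genes 10 were called higher and 2 lower (median 0.04, range 4 to 10 higher and 1 to 4 lower). Sphingomyelin synthase-related 1 (0.0868 to 0.157) lost its call without any one library other than mutant replicate 2 and wild-type replicate 3.

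Amino acid metabolism and transport had 8 of 106 genes called higher and 4 lower (median 0.18, range 0 to 8 higher and 2 to 5 lower). Cystathionine gamma-lyase (LOC5564056), which makes cysteine from cystathionine, had 148, 198 and 113 CPM in mutant brains, against 77.5, 79.2 and 86.1 CPM in wild-type brains, without overlap (log2 fold change 0.92, SE 0.19, adjusted p 0.0313). Pathetic (LOC5566143‡), a lysosomal amino acid carrier that acts on TOR growth signalling in *Drosophila*, rose to 175 ± 35.6 CPM in mutant brains, against 94.3 ± 7.48 CPM in wild-type brains (adjusted p 0.0165). In polyamine synthesis, ornithine decarboxylase 1 (LOC5569724†) rose to 134 ± 17.8 CPM in mutant brains, against 96.6 ± 1.38 CPM in wild-type brains (adjusted p 0.0402). Ornithine decarboxylase 1-like (LOC110679049†) had the same mean levels and may share its reads. S-adenosylmethionine decarboxylase (LOC110681235), the next enzyme of the route, fell to 86.5 ± 2.53 CPM in mutant brains, against 116 ± 8.25 CPM in wild-type brains (adjusted p 0.025). The calls of ornithine decarboxylase 1 (0.0794 to 0.133) and ornithine decarboxylase 1-like (0.0791 to 0.133) were lost without any one library other than mutant replicate 3. S-adenosylmethionine decarboxylase (0.0505 to 0.101) lost its call without any one library other than wild-type replicate 3. Cystathionine gamma-lyase (0.0675 to 0.122) and pathetic (0.0501 to 0.0752) lost their calls without any one library other than mutant replicates 2 and 3.

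Purine and thymidylate synthesis had 3 of 14 genes called higher and 0 lower (median 0.30, range 0 to 4 higher and 0 lower). ADE2 (LOC5578622†) and adenosine-3 (LOC5573654‡), both enzymes of purine assembly, were among them, the first at 25.97 ± 0.883 CPM in mutant brains, against 14.5 ± 3.56 CPM in wild-type brains (adjusted p 0.0269). The second was at 10.9 ± 2.06 CPM in mutant brains, against 5.37 ± 1.51 CPM in wild-type brains (adjusted p 0.0411). Thymidylate synthase (LOC5577671†), which makes a building block of DNA, was at 6.77 ± 0.742 CPM in mutant brains, against 3.90 ± 0.464 CPM in wild-type brains (adjusted p 0.0295). At the other end of the pathway, urate formation and breakdown had 4 of 14 called higher and 1 lower (median 0.72). All 4 are annotated as xanthine dehydrogenase, and they are also 4 of the 7 Malpighian tubule markers called higher. Xanthine dehydrogenase/oxidase (LOC5573295), which makes urate, rose to 21.9 ± 5.12 CPM in mutant brains, against 9.28 ± 2.67 CPM in wild-type brains (adjusted p 0.0293). Allantoicase (LOC5579205), which acts late in urate breakdown, had 2.14, 3.60 and 2.80 CPM in mutant brains, against 12.9, 12.2 and 10.6 CPM in wild-type brains, and all mutant values were lower (log2 fold change -2.06, SE 0.21, adjusted p 0.00208). Thymidylate synthase (0.0514 to 0.107) lost its call without any one of the 6 libraries. The call of ADE2 (0.0541 to 0.103) was lost without any one library other than wild-type replicate 3. The call of adenosine-3 (0.0868 to 0.148) was lost without any one library other than mutant replicate 2 and wild-type replicate 3. Xanthine dehydrogenase/oxidase (0.0657 to 0.123) lost its call without any one library other than mutant replicate 3 and wild-type replicate 1.

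Genes of glutathione, the main thiol that protects cells from oxidants, had 5 of 36 called higher and 2 lower (median 0.32, range 3 to 6 higher and 0 to 3 lower). Their called share was 19.4%, against 8.86% of all tested genes, but the list was drawn up after values were seen, so the share is no test. The regulatory subunit of glutamate-cysteine ligase (LOC5566585†), which sets the pace of glutathione synthesis, had 80.5, 81.6 and 75.5 CPM in mutant brains, against 50, 49.9 and 56.1 CPM in wild-type brains, without overlap (log2 fold change 0.61, SE 0.09, adjusted p 0.0079). Phospholipid hydroperoxide glutathione peroxidase (LOC5575813), which repairs oxidised membrane lipids, rose to 139.7 ± 7.42 CPM in mutant brains, against 86.2 ± 12.5 CPM in wild-type brains (adjusted p 0.0138), and glutathione S-transferase 1 (LOC5568355†), which conjugates glutathione to toxins, rose to 98.8 ± 18.2 CPM in mutant brains, against 52.6 ± 4.61 CPM in wild-type brains (adjusted p 0.0117). In the wider list of detoxification and redox, 28 of 289 genes were called higher and 8 lower (median 0.18, range 9 to 30 higher and 1 to 7 lower). Cytochrome P450 28a5 (LOC5568656), an oxidising heme enzyme, rose to 80.4 ± 9.26 CPM in mutant brains, against 14.5 ± 4.16 CPM in wild-type brains (adjusted p 0.00161). Iron and heme genes had 3 of 21 called higher and 0 lower (median 0.08, range 0 to 3 higher and 0 lower). Soma ferritin (LOC5569122), which stores iron, rose to 338 ± 51.7 CPM in mutant brains, against 216 ± 31.5 CPM in wild-type brains (adjusted p 0.0403). Uroporphyrinogen decarboxylase (LOC5568261†) and protoheme IX farnesyltransferase (LOC5570914†), of heme synthesis, had log2 fold changes of 0.61 and 0.51 (adjusted p 0.0215 and 0.0107). The call of soma ferritin (0.0507 to 0.159) was lost without any one library other than wild-type replicate 3. The call of uroporphyrinogen decarboxylase (0.0567 to 0.0868) was lost without mutant replicate 2 or wild-type replicate 1 or 2. Phospholipid hydroperoxide glutathione peroxidase (0.052 and 0.0688) lost its call without mutant replicate 1 or wild-type replicate 2. Without wild-type replicate 1, glutathione S-transferase 1 (0.0538) was not called. The call of protoheme IX farnesyltransferase (0.0687) was lost without wild-type replicate 2.

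Glycosaminoglycans, the sugar chains of proteoglycans, had 0 of 28 genes of synthesis and core proteins called higher and 3 lower (median -0.17, range 0 higher and 0 to 2 lower). Proteoglycan Cow (LOC5577698‡), a heparan sulfate proteoglycan that carries Wnt in *Drosophila*, had 712, 648 and 635 CPM in mutant brains, against 866, 823 and 879 CPM in wild-type brains, without overlap (log2 fold change -0.36, SE 0.09, adjusted p 0.0476). Glucuronosyltransferase P (LOC5567681), of an enzyme type named for the linker of the chains, had a log2 fold change of -0.41 (adjusted p 0.0297). The members of the list annotated as types I and S of this enzyme were not called (adjusted p 0.211 to 0.871). Beta-1,4-galactosyltransferase 7 (LOC5569772‡), which helps to build that linker, had a log2 fold change of -0.38 (adjusted p 0.0331). A basement membrane proteoglycan core protein (LOC5566582‡), which that list does not hold, rose to 10.3 ± 1.18 CPM in mutant brains, against 4.59 ± 1.38 CPM in wild-type brains (adjusted p 0.0223). The calls of proteoglycan Cow (0.0747 to 0.157) and beta-1,4-galactosyltransferase 7 (0.067 to 0.122) were lost without any one of the 6 libraries. Glucuronosyltransferase P (0.0847 to 0.128) and a basement membrane proteoglycan core protein (0.0611 to 0.0873) lost their calls without any one library other than mutant replicate 3 and wild-type replicate 3.

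In membrane traffic 2 of 219 genes were called higher and 10 lower (median -0.05, range 1 to 2 higher and 1 to 6 lower). That is 5.48% called, under the 8.86% of all tested genes. Exocyst complex component 8 (LOC5573343‡), of the complex that tethers secretory vesicles, had 49.6, 54.6 and 65.8 CPM in mutant brains, against 28.2, 32.0 and 31.4 CPM in wild-type brains, and all mutant values were higher (log2 fold change 0.89, SE 0.13, adjusted p 0.0074). Sorting nexin-12 (LOC5565148), a sorting protein of endosomes, fell to 222 ± 35.2 CPM in mutant brains, against 346 ± 28.4 CPM in wild-type brains (adjusted p 0.0275), and Klp98A (LOC5580293‡), a motor of endosomes, fell to 97.6 ± 8.26 CPM in mutant brains, against 139.8 ± 10.6 CPM in wild-type brains (adjusted p 0.0219). Genes of protein breakdown had 8 of 308 called higher and 6 lower (median -0.03, range 5 to 9 higher and 1 to 7 lower). Goliath (LOC5576142), a ubiquitin ligase of endosomes, had 229, 229 and 205 CPM in mutant brains, against 363, 438 and 612 CPM in wild-type brains, and each mutant value was below each wild-type value (log2 fold change -1.09, SE 0.19, adjusted p 0.0152). Listerin (LOC5568156†‡), which marks stalled nascent chains on ribosomes, rose to 138 ± 5.54 CPM in mutant brains, against 77.95 ± 2.81 CPM in wild-type brains (log2 fold change 0.83, SE 0.08, adjusted p 0.00148). Skp1 (LOC5571571), an adaptor of cullin ligases, fell to 193 ± 14.5 CPM in mutant brains, against 253 ± 17.1 CPM in wild-type brains (adjusted p 0.0476). A pair of genes annotated as the proteasomal receptor ADRM1 fell to low levels. The gene LOC5578200 fell to 2.08 ± 1.08 CPM in mutant brains, against 10.6 ± 1.32 CPM in wild-type brains (adjusted p 0.00771). The gene LOC5571855 fell to 2.90 ± 1.56 CPM in mutant brains, against 14.3 ± 1.25 CPM in wild-type brains (adjusted p 0.0088). Both ADRM1 genes had counts that were not whole and moved in parallel over the libraries, so they may share reads. Skp1 (0.0602 to 0.135) lost its call without any one of the 6 libraries. Sorting nexin-12 (0.0634 to 0.101) lost its call without any one library other than mutant replicate 2 and wild-type replicate 3. The call of Klp98A (0.0837 to 0.0944) was lost without mutant replicate 1 or wild-type replicate 1 or 2. Goliath (0.068) and ADRM1 LOC5571855 (0.0519) lost their calls without mutant replicate 1.

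Lysosomal genes had 4 of 50 called higher and 0 lower (8.0% called, against 8.86% of all tested genes), with a median of -0.03. Lysosomal acid phosphatase (LOC5566404), a hydrolase of the lysosomal lumen, had 111, 109.7 and 92.9 CPM in mutant brains, against 15.4, 16.4 and 18.9 CPM in wild-type brains. Each mutant library was several times above each wild-type library (log2 fold change 2.63, SE 0.12, adjusted p 0.000248), and the gene lies on chromosome 1 at 205493270 to 205515101. Cathepsin L (LOC5576221), a lysosomal protease, rose to 282 ± 19.9 CPM in mutant brains, against 189.9 ± 33.2 CPM in wild-type brains (adjusted p 0.043). V-type ATPase subunit d 1 (LOC5574244), of the proton pump that acidifies lysosomes and synaptic vesicles, had 84.6, 89.4 and 68.97 CPM in mutant brains, against 23.8, 26.8 and 29.4 CPM in wild-type brains, without overlap (log2 fold change 1.60, SE 0.13, adjusted p 0.000945). A second gene annotated as subunit d 1, LOC110675318†, had 141, 139 and 148 CPM in mutant brains, against 174, 172 and 197 CPM in wild-type brains and was not called (log2 fold change -0.34, SE 0.09, adjusted p 0.051). Autophagy-related protein 2 (LOC5578996‡), which passes lipid to growing autophagosomes, rose to 222 ± 7.52 CPM in mutant brains, against 118 ± 5.40 CPM in wild-type brains (log2 fold change 0.92, SE 0.08, adjusted p 0.00108). The call of cathepsin L (0.0574 to 0.158) was lost without any one library other than wild-type replicate 3.

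Among transcription factors 22 of 691 were called higher and 19 lower (median -0.02, range 5 to 15 higher and 7 to 18 lower), and several large changes were in zinc finger proteins whose annotation gives no role. Zinc finger protein 99 (LOC5571247) had 162, 156 and 131 CPM in mutant brains, against 20.6, 21.3 and 25.1 CPM in wild-type brains. Each mutant library was several times above each wild-type library (log2 fold change 2.75, SE 0.12, adjusted p 0.000248), and the gene lies on chromosome 3 at 371446107 to 371496958. ZXDC-like (LOC110680966) rose to 24.7 ± 5.15 CPM in mutant brains, against 4.80 ± 0.613 CPM in wild-type brains (adjusted p 0.000866), and ZSCAN31 (LOC5577177) rose to 22.1 ± 1.99 CPM in mutant brains, against 5.42 ± 0.628 CPM in wild-type brains (adjusted p 0.000506). Zinc finger protein 665 (LOC5571107) fell to 38.4 ± 6.11 CPM in mutant brains, against 96.4 ± 5.10 CPM in wild-type brains (log2 fold change -1.33, SE 0.13, adjusted p 0.00183), and weckle (LOC5577401), which acts in Toll signalling in *Drosophila*, fell to 1.17 ± 0.388 CPM in mutant brains, against 5.17 ± 0.699 CPM in wild-type brains (adjusted p 0.00495). Other nuclear genes included mRNA-capping enzyme (LOC5575290), which adds the cap to new transcripts. It had 16.4, 17.1 and 13.6 CPM in mutant brains, against 76.9, 78.8 and 74.2 CPM in wild-type brains. The mutant values were a small part of the wild-type values in all libraries (log2 fold change -2.29, SE 0.11, adjusted p 0.000248), and the gene lies on chromosome 1 at 147391183 to 147405278. Dicer (LOC5579924†), which cuts double-stranded RNA, rose to 179 ± 13.1 CPM in mutant brains, against 101 ± 19.1 CPM in wild-type brains (adjusted p 0.0146). Histone H4 (LOC5578499), a core protein of nucleosomes, fell to 39.6 ± 7.29 CPM in mutant brains, against 84.2 ± 15.3 CPM in wild-type brains (adjusted p 0.0122). Histone transcripts mostly lack a polyA tail, so their level in polyA libraries is uncertain. The call of Dicer (0.0507 and 0.0583) was lost without mutant replicate 1 or wild-type replicate 1. Histone H4 (0.0523 and 0.0532) lost its call without mutant replicate 1 or wild-type replicate 2.

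Genes of DNA replication and division changed at low levels, with 6 of 173 called higher and 7 lower (median -0.06, range 2 to 6 higher and 4 to 7 lower). Their called share, 7.51%, was under the 8.86% of all tested genes. N-acetyltransferase eco (LOC5568379‡), which locks sister chromatids together, had 3.11, 3.55 and 3.13 CPM in mutant brains, against 15.6, 16.4 and 15.3 CPM in wild-type brains, and each mutant value was below each wild-type value (log2 fold change -2.27, SE 0.12, adjusted p 0.000285). The DNA polymerase alpha catalytic subunit (LOC5570317†‡) and DNA polymerase alpha subunit B (LOC5569499†), of the polymerase that primes replication, both fell, the first to 1.053 ± 0.176 CPM in mutant brains, against 3.51 ± 0.419 CPM in wild-type brains (adjusted p 0.00674). The second fell to 0.621 ± 0.0690 CPM in mutant brains, against 2.47 ± 1.47 CPM in wild-type brains (adjusted p 0.0423). Timeless homolog (LOC5572105), of the replication fork, rose to 6.32 ± 1.25 CPM in mutant brains, against 1.57 ± 0.437 CPM in wild-type brains (adjusted p 0.00585). Abnormal spindle (LOC5577527), of the mitotic spindle, rose to 5.28 ± 1.02 CPM in mutant brains, against 1.10 ± 0.0620 CPM in wild-type brains (adjusted p 0.00216). The list of hormone and circadian genes had 2 of 44 called higher, the timeless homolog among them, and 1 lower (median -0.04, range 1 higher and 0 to 1 lower). DNA polymerase alpha subunit B (0.0622 to 0.136) lost its call without any one library other than wild-type replicate 3.

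Extracellular and immune genes held many calls, most of them higher in the mutant. Proteases, inhibitors and cuticle proteins had 30 of 234 called higher and 8 lower (median 0.27, range 9 to 42 higher and 4 to 9 lower). Immune genes had 10 of 94 called higher and 4 lower (median 0.52, range 0 to 19 higher and 0 to 3 lower). The called shares of these lists were 16.2% and 14.9%, against 8.86% of all tested genes. In a list of protease inhibitors, mostly serpins, 5 of 20 were called, all higher (median 0.59, range 0 to 9 higher and 0 lower). Serine protease inhibitor 28Dc (LOC5578955‡) had 77.0, 86.4 and 58.1 CPM in mutant brains, against 37.8, 47.6 and 42.2 CPM in wild-type brains, without overlap (log2 fold change 0.80, SE 0.16, adjusted p 0.0274). Serine protease inhibitor 27A (LOC5563725†‡) and leukocyte elastase inhibitor (LOC5575764†), of the same family, had log2 fold changes of 0.84 and 1.21 (adjusted p 0.0299 and 0.0142). Adult cuticle protein 1 (LOC5573903), a structural protein, rose to 90.5 ± 11.6 CPM in mutant brains, against 45.2 ± 10.3 CPM in wild-type brains, and endochitinase (LOC5576723†), which cuts chitin, rose to 44.2 ± 6.89 CPM in mutant brains, against 25.0 ± 4 CPM in wild-type brains (adjusted p 0.0204 and 0.026). A second gene annotated as adult cuticle protein 1 was called lower (log2 fold change -1.365, adjusted p 0.0214). It had 10.55 CPM in mutant and 27.21 CPM in wild-type brains, and its call with a library left out is not given. Further members of the protease and cuticle list called lower are not described in this paragraph. Of the Toll pathway, the receptor toll 5A (LOC5569408) rose to 89.0 ± 5.27 CPM in mutant brains, against 65.2 ± 3.60 CPM in wild-type brains (adjusted p 0.0229), the ligand gene spaetzle 3 (LOC5565708†) rose to 10.6 ± 2.85 CPM in mutant brains, against 4.88 ± 1.08 CPM in wild-type brains (adjusted p 0.0361) and the ligand gene spaetzle 4 (LOC5569768) fell to 5.24 ± 0.407 CPM in mutant brains, against 11.5 ± 2.64 CPM in wild-type brains (adjusted p 0.0125). Peptidoglycan-recognition protein LC (LOC5576901‡), which senses bacterial cell wall upstream of the Imd pathway, rose to 28.8 ± 2.87 CPM in mutant brains, against 17.6 ± 1.77 CPM in wild-type brains (adjusted p 0.0149), and lysozyme c-1 (LOC23687552‡), which digests that wall, fell to 13.2 ± 1.66 CPM in mutant brains, against 23.2 ± 3.42 CPM in wild-type brains (adjusted p 0.0193). Fat body markers, whose tissue secretes many of these proteins, took a larger share in all 3 mutant libraries, and gut markers, several of them proteases, had 6 of 39 called higher and 1 lower. The part of either in these changes was not tested. Serine protease inhibitor 28Dc (0.0614 to 0.097), serine protease inhibitor 27A (0.0544 to 0.117), toll 5A (0.0502 to 0.0868) and spaetzle 3 (0.0756 to 0.106) lost their calls without any one library other than mutant replicate 3. The call of adult cuticle protein 1 LOC5573903 (0.0507 to 0.0625) was lost without any one library other than mutant replicate 3 and wild-type replicate 3. Endochitinase (0.0562 to 0.0751) lost its call without any one library other than mutant replicate 1 and wild-type replicate 3. Without mutant replicate 1 or wild-type replicate 2, leukocyte elastase inhibitor (0.0511 and 0.0713) and lysozyme c-1 (0.0832 and 0.0798) were not called. The call of peptidoglycan-recognition protein LC (0.0528 and 0.0588) was lost without wild-type replicate 1 or 2. Spaetzle 4 (0.065) lost its call without mutant replicate 1.

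Solute transporters outside the amino acid list had 11 of 118 called higher and 4 lower (median 0.14, range 2 to 9 higher and 0 to 4 lower). Monocarboxylate transporter 10 (LOC5578372‡), of the family that carries lactate, hormones and amino acids, rose to 198 ± 25.0 CPM in mutant brains, against 131 ± 12.0 CPM in wild-type brains (adjusted p 0.0243), and monocarboxylate transporter 8 (LOC5575506), of the same family, fell to 25.0 ± 4.95 CPM in mutant brains, against 44.0 ± 5.98 CPM in wild-type brains (adjusted p 0.0316). The inorganic phosphate cotransporter (LOC5568583) rose to 195 ± 15.9 CPM in mutant brains, against 147 ± 12.1 CPM in wild-type brains (adjusted p 0.0482). Among 217 genes of the cytoskeleton and motors 6 were called higher and 6 lower (median 0.00, range 1 to 10 higher and 1 to 5 lower). Gelsolin (LOC5567446), which severs actin, rose to 222 ± 32.4 CPM in mutant brains, against 154 ± 13.2 CPM in wild-type brains (adjusted p 0.0465), and troponin C (LOC5568132), the calcium sensor of muscle, rose to 352 ± 37.3 CPM in mutant brains, against 250.4 ± 26.6 CPM in wild-type brains (adjusted p 0.0466). Muscle markers as a list overlapped between genotypes, with 1 of 63 called higher and 1 lower. Annexin B10 (LOC5566469), a calcium-dependent membrane protein, fell to 3.19 ± 1.17 CPM in mutant brains, against 12.5 ± 0.793 CPM in wild-type brains (log2 fold change -1.97, SE 0.24, adjusted p 0.00455). The call of the inorganic phosphate cotransporter (0.0652 to 0.162) was lost without any one of the 6 libraries. Monocarboxylate transporter 10 (0.0502 to 0.108), gelsolin (0.0564 to 0.171) and troponin C (0.0652 to 0.182) lost their calls without any one library other than mutant replicate 3. The call of monocarboxylate transporter 8 (0.0551 to 0.121) was lost without any one library other than mutant replicate 3 and wild-type replicate 3.

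Some annotated names occurred in pairs that moved in opposite directions, as in the lachesin pair. EFR3 homolog (LOC5569747), which holds a lipid kinase at the membrane and supports phototransduction in *Drosophila*, had 15.8, 16.2 and 16.4 CPM in mutant brains, against 63.3, 64.6 and 51.1 CPM in wild-type brains. The second gene of this name, LOC110674003†, had 72.8, 72.9 and 71.3 CPM in mutant brains, against 33.5, 38.7 and 45.3 CPM in wild-type brains. In each gene the groups were apart, lower in the mutant for the first and higher for the second (log2 fold changes -1.89 and 0.89, adjusted p 0.000405 and 0.00619). Likewise, the growth factor receptor gene BMP receptor 1B (LOC5571852†‡) fell to 18.6 ± 5.69 CPM in mutant brains, against 59.6 ± 11.9 CPM in wild-type brains, while LOC5575840†‡ of the same name rose to 46.0 ± 6.86 CPM in mutant brains, against 19.9 ± 2.02 CPM in wild-type brains (adjusted p 0.00836 and 0.00331). The sources used here do not say how reads were shared between such copies, so the split within a pair is uncertain. BMP receptor 1B LOC5571852 (0.0519) lost its call without mutant replicate 1.

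The fat body libraries of the same genotypes allow a test of whether the genotype effect differed between tissues. In fat body 27 of 11558 genes were called (0.234%), and the genotype effect differed between tissues in 60 of 12859 genes (0.467%), by an interaction contrast over all 12 libraries. Of the genes named here, 8 were among these 60, and 2 of the 8 remained with a replicate block. The sodium/potassium/calcium exchanger (LOC5565499), rdgC (LOC5577768†‡), bride of sevenless (LOC5568657†) and monocarboxylate transporter 8 (LOC5575506) fell in mutant brains. In fat body their log2 fold changes were 1.00, 1.48, 0.91 and 2.23, and none of them was called there (adjusted p 0.564, 0.469, 0.509 and 0.0617). RdgC had only 1.02 CPM in mutant and 0.367 CPM in wild-type fat bodies, so its change there rests on few counts. Zinc finger protein 99 (LOC5571247) rose and mRNA-capping enzyme (LOC5575290) fell by more in brain than in fat body, where their log2 fold changes were 0.92 and -0.35. Isoaspartyl peptidase (LOC5580113‡), which cleaves isoaspartyl peptides, fell to 2.16 ± 0.452 CPM in mutant brains, against 8.77 ± 0.734 CPM in wild-type brains (adjusted p 0.00177). In fat body its log2 fold change was 1.41, at low levels of 2.16 CPM in mutant and 0.809 CPM in wild type. Torso (LOC5574477‡), a receptor kinase that starts the ecdysone surge in *Drosophila* larvae, had 43.2, 56.9 and 31.4 CPM in mutant brains, against 12.2, 13.1 and 13.97 CPM in wild-type brains, all mutant values being higher (log2 fold change 1.75, SE 0.21, adjusted p 0.00421). Torso was called in fat body as well, with a log2 fold change of 4.81 (adjusted p 0.0333) and levels of 897 CPM in mutant and 31.9 CPM in wild-type fat bodies. For every other gene named, a difference between the tissues was not shown. Monocarboxylate transporter 8 (0.0551 to 0.121) lost its call without any one library other than mutant replicate 3 and wild-type replicate 3. The call of bride of sevenless (0.0666) was lost without mutant replicate 1.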

How the data were processed

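Per the labels' protocols, mRNA from the tissue was fragmented, primed at random and turned into NEBNext Ultra II libraries. The submitters' processing notes name DESeq2, featureCounts (Subread), FastQC and STAR, with no versions. The sources used here do not give the build, nor how strand and reads shared between genes were handled. The authors deposited estimated counts per gene, which were rounded to whole numbers here, and TPM values, used only in alternatives. The authors' deposited table for brain holds p-values, a test score, a log2 fold change and a mean normalized count (signal), per the file headers. It called 1728 genes (911 higher, 817 lower), and the 134 called genes named here were called in the same direction in the authors' deposited table. Positions are on AaegL5.0 and are printed only where the deposited positions match that annotation.

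The 6 brain libraries (20028290 to 31314215 counts) were fitted in R 4.3.3 with edgeR 4.0.16, using robust dispersions, TMM scaling, a low-count filter (filterByExpr at a count of 10 and a total of 15), the two-sided quasi-likelihood test, Benjamini-Hochberg adjustment over all tested genes and a threshold of 0.05. The common biological coefficient of variation was 0.21, and replicates differed by more than counting noise (a chi-square of 22.1 to 56.7 for each degree of freedom). Shares of counts were compared with exact permutation tests. Brain and fat body changes were compared by a contrast in one fit over both tissues. The fit was tested on simulated data.

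The genes, the 35 function lists and the 7 marker lists were chosen with earlier results of these data known, and 14 smaller lists were drawn up after values were seen. The naming rule took the 15 most abundant annotated called genes in each direction, those ranked 11 to 20 by size of change with at least 5 CPM and no overlap, the 2 most abundant called members of each function list in each direction, the most abundant member of visual, neuronal and metabolic lists, and Gr34. The rule gave 150 genes, of which 96 are named here by identifier, so not every gene it took is described. Of 148 genes named by identifier, 52 were picked once values were known, 40 overlap another annotated gene and 76 have counts that were not whole. Overlaps were searched only among genes placed on a chromosome. The values of these genes are that much less certain.

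Alternatives were DESeq2 1.42.0, limma-voom (limma 3.58.1), DESeq2 size factors, library size only, other filters, a replicate block, one fit of all 12 libraries, log2(TPM + 1), log2(TPM + 0.1), a 2-fold minimum and each library left out in turn.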

Additional observations from a re-analysis of the deposited data

Results flagged for a closer look

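The genotype effect differed between brain and fat body, by the interaction contrast over all 12 libraries (edgeR, Benjamini-Hochberg adjusted p), for 8 of the genes named in the report. With a replicate block in the same fit, 2 of these 8 differences were called. For the phosphatase rdgC (LOC5577768) the difference in log2 fold change, brain minus fat body, was -2.31 (adjusted p 0.0325). Its fat body levels were low, at 1.02 CPM in mutant and 0.367 CPM in wild type. For bride of sevenless (LOC5568657) the difference was -1.89 (adjusted p 0.0405). For the sodium/potassium/calcium exchanger 4 (LOC5565499), which had 43.3 CPM in mutant and 21.7 CPM in wild-type fat bodies, it was -2.97 (adjusted p 0.0228). For zinc finger protein 99 (LOC5571247) it was 1.77 (adjusted p 0.00863), and for mRNA-capping enzyme (LOC5575290) it was -1.98 (adjusted p 0.0405). For monocarboxylate transporter 8 (LOC5575506) it was -3.08 (adjusted p 0.00863). Isoaspartyl peptidase (LOC5580113), also low in fat body at 2.16 CPM in mutant and 0.809 CPM in wild type, gave -3.46 (adjusted p 0.0385). Torso (LOC5574477) gave -3.12 (adjusted p 0.0296). Of the 12859 genes in that fit, 0.467% differed.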

How the results depend on the processing

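The 1050 called genes (545 higher, 505 lower) became 1730 (915 and 815) with DESeq2, 343 (137 and 206) with all 12 libraries in one fit and 625 (312 and 313) with a 2-fold minimum, and stayed within 1.5 times under the other alternatives. With each library left out in turn the count ran from 405 to 979, with 189 to 592 higher and 207 to 388 lower. Of the 134 called genes named, 27 kept their call in every alternative other than leaving out a library, 50 in every fit that left out 1 library and 23 in all of them. All 12 libraries in one fit kept 27, limma-voom 130 and DESeq2 134. Library size only gave 594 higher and 449 lower.

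Same-numbered mutant and wild-type libraries deviated together by correlations of -0.002, 0.135 and 0.241, the last being the highest of any pair. Mutant replicate 2 correlated best with wild-type replicate 1 (0.225). With 3 libraries in each genotype, these values cannot decide whether same-numbered libraries share more than a number. The replicate block gave 767 called genes (397 higher, 370 lower) and kept 102 of the 134. It left 2 of the 8 differences between tissues, and limma-voom left 7.

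Gr34, which was not called in any fit, changed sign with limma-voom (-0.15), the replicate block (-0.11), log2(TPM + 1) (-0.02) and log2(TPM + 0.1) (-0.08). It changed sign also without mutant replicate 3 (-0.79) and without wild-type replicate 3 (-0.25), and with each library left out in turn it ran up to 0.41. The photoreceptor share was lower by 4.06 percentage points (-5.52 in TPM, -5.47 to -3.06 with a library left out), and the mitochondrially encoded share was higher by 0.306 (0.519 in TPM, 0.213 to 0.376 with a library left out). Genes at few counts, Gr34 among them, are limited by depth. The causes of these changes were not tested.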

Other observations

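Peritrophin-1-like (LOC110675944), a chitin-binding protein of the gut lining, was chosen after its values were seen. It had 234, 314 and 0.0965 CPM in mutant brains, against 0.485, 0 and 0 CPM in wild-type brains. Mutant replicates 1 and 2 were high, and mutant replicate 3 was as low as wild type. The gene was not called (adjusted p 0.117), and it was called without mutant replicate 3 (adjusted p 0.00429). The gene is itself one of the gut markers, so the gut marker share is not a separate measure of it. That share was lowest in mutant replicate 3, at 0.148%, against 0.249 and 0.32% in the other mutant libraries. The part of gut tissue in these values was not tested.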
